A study of Mus musculus with 10 samples.

Results

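The RGS proteins (regulators of G protein signalling) were followed here as 8 genes, Rgs2, Rgs4, Rgs7, Rgs8, Rgs9, Rgs10, Rgs14 and Rgs16, taken by symbol from the 32531 gene rows of the count files. All 8 were present and all 8 passed the filter on low counts. The assay was TRAP-seq: a ribosomal protein fused to EGFP (EGFP/Rpl10a) is made in one cell class, its polysomes are pulled down with antibodies against EGFP, and the bound RNA is sequenced. All mice were adult Drd1-TRAP CP73 animals, backcrossed for at least 9 generations to C57BL/6 from a mixed FVB/N-Swiss Webster background, so that the tag followed the Drd1 promoter, which is active mainly in the D1 medium spiny neurons of the direct pathway. The whole striatum was used, and there were 3 pull-downs from cocaine self-administration, 3 from the yoked control and 3 from saline self-administration, all in a short access intravenous study, plus 1 input of total striatal RNA, for which no treatment is given. What yoked mice were given, whether a library is 1 animal or a pool, and whether a group's libraries are from different animals is not in the labels; the p-values therefore reflect the scatter among these samples alone, and that scatter may be technical. Libraries are named by group and number (cocaine 2, for example).

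RGS proteins speed up the hydrolysis of GTP by active G alpha subunits and so shorten the signal of a G protein coupled receptor. The R4 subfamily (Rgs2, Rgs4, Rgs8 and Rgs16) consists of small proteins with little beyond the RGS domain, the R7 subfamily (Rgs7 and Rgs9) binds the G beta subunit encoded by Gnb5 and is held at the membrane by anchor proteins, and the R12 subfamily is represented by Rgs10, which is little more than an RGS domain, and Rgs14, which also binds Ras proteins and inactive G alpha i. In the striatum, dopamine, acetylcholine, opioid and adenosine receptors all signal through G proteins, and a long splice form of Rgs9 is known as a striatal RGS protein.

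The genes lie on 4 chromosomes of mm10, with 5 of the 8 on chromosome 1. In the RefSeq annotation of GRCm38.p6, no annotated gene overlapped any of the 8. Rgs8 (153652959 to 153697669) and Rgs16 (153740353 to 153745468) are neighbours on chromosome 1, 42.7 kb apart, with 1 noncoding gene between them. Promoter sequence from RefSeq matched 7 of the 8 members, all but Rgs14, in 9 windows of 250 bases before an annotated start (Rgs8 has 3 starts). The windows of Rgs2, Rgs4 and Rgs9 are printed for their values below, Rgs2 as the one member whose cocaine and saline libraries did not overlap, Rgs4 as the one with the next smallest p in that comparison, though its groups overlapped, and Rgs9 as the well covered member that lay below the input. The window of Rgs10, the member with the highest ratio to the input, held none of the sequences marked here and is not printed. Capitals mark TGACG or CGTCA (the short form of the cAMP response element), CCAAT or ATTGG (the CCAAT box) and TATAAA or TTTATA (the TATA box).
Rgs2: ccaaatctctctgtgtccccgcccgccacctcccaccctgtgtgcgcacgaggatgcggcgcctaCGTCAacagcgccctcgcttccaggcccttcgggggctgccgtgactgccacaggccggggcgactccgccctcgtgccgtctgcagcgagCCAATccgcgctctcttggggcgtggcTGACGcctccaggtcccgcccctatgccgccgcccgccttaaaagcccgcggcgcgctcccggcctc
Rgs4: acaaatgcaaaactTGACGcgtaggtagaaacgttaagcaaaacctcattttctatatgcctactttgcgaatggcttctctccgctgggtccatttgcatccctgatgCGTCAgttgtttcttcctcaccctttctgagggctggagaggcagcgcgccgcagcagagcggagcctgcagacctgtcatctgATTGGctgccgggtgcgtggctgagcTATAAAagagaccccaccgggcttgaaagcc
Rgs9: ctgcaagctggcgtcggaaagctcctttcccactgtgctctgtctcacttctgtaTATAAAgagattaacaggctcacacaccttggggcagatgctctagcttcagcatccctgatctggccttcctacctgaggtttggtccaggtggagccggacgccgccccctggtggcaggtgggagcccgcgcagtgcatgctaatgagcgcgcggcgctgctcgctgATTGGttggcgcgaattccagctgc
These are chr1:144004150-144004399, chr1:169747643-169747892 and chr11:109298182-109298431 of GRCm38.p6, all on the minus strand and written 5′ to 3′.

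The short form of the cAMP response element stood in 3 of the 9 windows, at 2 places each in Rgs2 and Rgs4 and at 1 place in 1 window of Rgs8, and in 17.8% of 32851 promoter windows of the same length. Its first base was 185 and 67 bases before the start in Rgs2, and 236 and 141 bases before it in Rgs4. The full element TGACGTCA, which contains the short form on both strands, was in 0 of the 9 windows and in 1.55% of all windows. The CCAAT box was in 6 of the 9 windows, against 33.8% of all, and the TATA box in 2, against 12.4%. The TATA box of Rgs4 began 31 bases before the start and that of Rgs9 195 bases before it. The E-box CACGTG was in 1 window, that of Rgs7, and in 6.02% of all. A match of letters is a description of sequence and was not set against binding data.

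Depth was 32169018 to 33432793 gene counts in the cocaine, 38611396 to 45242175 in the yoked and 12528806 to 28408236 in the saline libraries, and 40519976 in the input. Levels are given as CPM, the counts of a gene per 1000000 gene counts of the library, and are compared between libraries of 1 gene and not between genes, since transcript lengths were not used here. All 7 markers of D1 medium spiny neurons were above the input in all 9 pull-downs (median ratio 2.27), with Drd1 itself at 2.07 times the input. All 6 markers of D2 medium spiny neurons were below it in all 9 (median ratio 0.154). Markers of cortical glutamatergic neurons, for the 5 that averaged 50 or more counts, had a median ratio of 2.20, near that of the D1 markers. Of these 5, 0 were above the input in all 9 and 0 below it in all 9. The part of cortical RNA in the ratios of the RGS genes was not tested. The sequencing lane named in the labels was 1 for cocaine, 2 for yoked, 3 for saline and 5 for the input, and a lane effect and a group effect cannot be told apart.

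The first comparison, of the pull-downs with the input, asked which RGS transcripts were held more or less by the tagged ribosomes than by striatal RNA as a whole. Rgs10, Rgs2, Rgs14, Rgs7 and Rgs4 exceeded the input in each of the 9 pull-downs, Rgs9 and Rgs16 lay below it in each, and Rgs8 lay on both sides. Of the 12189 genes that averaged 50 or more counts, 33.1% were above the input in all 9 and 30.2% below it in all 9, so that one side in all libraries was common, and the 5 of 8 and 2 of 8 members are to be read against those shares. The median ratio of the 8 members was 1.34 and that of all genes was 1.04. With 1 input library there was no test, and in such bulk RNA fewer cells of a type and less RNA per cell cannot be told apart. Each ratio also sets RNA bound to ribosomes against total RNA read in another lane, and the part of these differences was not tested.

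Within the R12 subfamily both genes were above the input. Rgs10, which in the brain is best known from microglia, ranged from 31.5 to 59.4 CPM over the pull-downs, a mean of 2.79 times the input (log2 1.48 ± 0.29, SD, n = 9), which held 14.2 CPM (95% Poisson interval 13.1 to 15.4, counting error only). That mean ratio exceeded those of 97.4% of all genes. The 7 microglial markers summed to 5.66 to 11.6 CPM in the cocaine, 3.82 to 25.4 in the yoked and 5.17 to 15.8 in the saline pull-downs and to 76.7 CPM in the input, and the 5 of them with a mean count of 50 or more were below the input in all 9. C1qa, a complement gene, was at 0 in saline 3. In yoked 3, the library with the highest Rgs10, the microglial sum was the lowest of the 9, and the part of microglial RNA in the Rgs10 values was not tested. Rgs14 was at 1.66 times the input (log2 0.73 ± 0.27, SD, n = 9), with 1.14 times in yoked 3 as the lowest and 2.01 times in yoked 2 as the highest.

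The R4 genes lay on both sides of the input. Rgs2, which acts mainly on G alpha q and is induced rapidly in many cells, was at 2.17 times the input (log2 1.12 ± 0.23, SD, n = 9), from 1.66 times in saline 3 to 2.74 times in cocaine 2, above 93.3% of all genes. Rgs4, a regulator of G alpha i, o and q that is strongly expressed in forebrain neurons, was at 1.33 times the input (log2 0.41 ± 0.24), but only at 1.04 times in yoked 2. Rgs8, a regulator of G alpha i and o, stood at 0.942 times the input (log2 -0.09 ± 0.26) and was above it in 4 of 9 libraries. With TMM scaling of the 10 libraries, which moved the median log2 ratio of all genes to 0.25 from 0.05, the mean of Rgs8 was 0.12, and relative to that median it was -0.13 with TMM and -0.14 with CPM. Rgs16, its neighbour, was at 0.415 times the input (log2 -1.27 ± 0.32), from 0.274 in saline 2 to 0.576 in yoked 3, with 21 to 184 counts per pull-down against 301 in the input.

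The 2 R7 genes stood on opposite sides. Rgs7 was at 1.35 times the input (log2 0.43 ± 0.10, SD, n = 9), the smallest spread of the 8, with each pull-down between 1.21 and 1.50 times. Rgs9, a gene of high striatal expression, was at 0.505 times the input (log2 -0.98 ± 0.14), from 0.425 in yoked 3 to 0.567 in cocaine 3. The input held 650.5 CPM of Rgs9 RNA (95% Poisson interval 643 to 658), and the highest pull-down, cocaine 3, held 368 CPM. Of 7 markers shared by all medium spiny neurons, 2 exceeded the input in each of the 9 pull-downs and 0 lay below it in each, with a median ratio of 1.10. The 6 markers of D2 neurons, which also express Rgs9, summed to 219 to 277 CPM in cocaine, 205 to 493 in yoked and 147 to 353 in saline pull-downs and to 1481 CPM in the input, and their part in the Rgs9 ratio was not tested. The counts of a gene do not separate the splice forms of Rgs9.

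**Figure D1:**
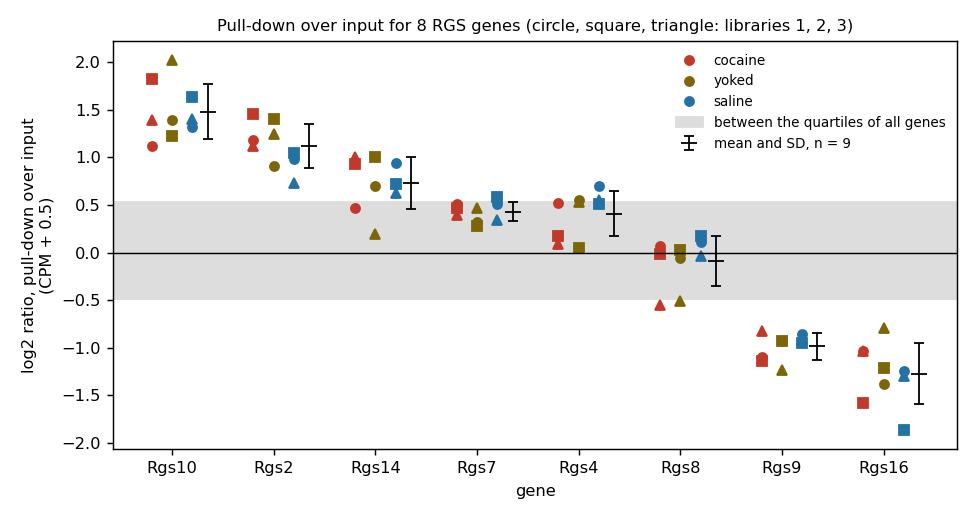
The vertical axis gives the log2 ratio of CPM (with 0.5 added) in each pull-down to that in the single input, for 8 RGS genes ordered by their mean. Points are libraries (cocaine, yoked and saline), black bars the mean and SD over 9, and the grey band lies between the quartiles of all genes. Rgs10 and Rgs2 lie above the band in all 9 libraries and Rgs9 and Rgs16 below it.

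**Figure D2:**
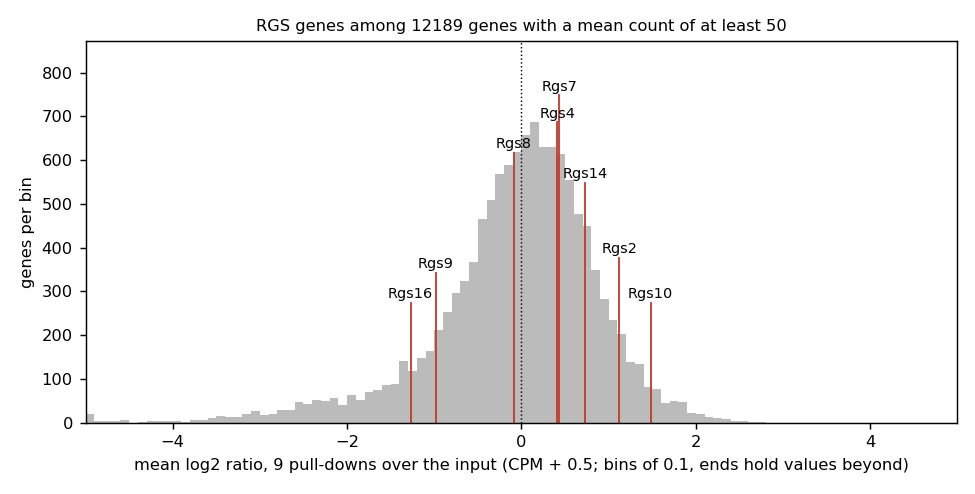
Grey bars count genes by their mean log2 ratio of pull-down to input over 9 libraries, for 12189 genes, and red lines mark the 8 RGS genes. Rgs10 lies near the upper end at 1.48, Rgs16 at -1.27 and Rgs9 at -0.98 on the lower side, and the others between -0.09 and 1.12.

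The second set of comparisons asked whether these transcripts differed between the treatment groups. No RGS gene was called in any of the 3 comparisons at an adjusted p under 0.05 (edgeR's quasi-likelihood test, Benjamini-Hochberg over 14680 genes), where 0% of all genes were called in each. At an unadjusted p under 0.05 there was 1 of 8 members between cocaine and saline (Rgs2, higher in cocaine, against 2.84% of all genes, 417, with 1.79% higher and 1.05% lower), 0 between cocaine and yoked (2.58%, 379, with 1.36% higher and 1.22% lower) and 0 between yoked and saline (1.84%, 270, with 1.16% higher and 0.681% lower). Libraries that did not overlap between groups were found for 1 of 8 members between cocaine and saline, again Rgs2, where 3.66% of all genes were wholly higher and 7.7% wholly lower in cocaine. Between cocaine and yoked it was 0 of 8 (2.76% and 3.25% of all genes), and between yoked and saline 0 of 8 (2.13% and 4.46%). DESeq2 and limma-voom, run on the same counts, had 1, 0 and 0 members at an unadjusted p under 0.05. Over all genes the numbers were 442, 431 and 303 by DESeq2 and 321, 434 and 225 by limma-voom. At the adjusted threshold DESeq2 and limma-voom called 1 and 0 of all genes between cocaine and saline and 0 in the other comparisons. The median log2 fold change of the members was 0.05 for cocaine over saline, 0.03 for cocaine over yoked and -0.07 for yoked over saline, beside 0.0036, -0.03 and 0.03 for all genes tested. The comparisons share their groups: the saline libraries serve in both comparisons with saline, the yoked libraries in both with yoked and the cocaine libraries in both with cocaine.

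Rgs2 had the widest gap between cocaine and saline. It was at 425, 515 and 409 CPM in cocaine 1, 2 and 3, at 352, 496 and 444 CPM in yoked 1, 2 and 3, and at 371, 388 and 311 CPM in saline 1, 2 and 3. Every cocaine library was above every saline library, as for 3.66% of the 11895 genes that averaged 50 or more counts, whereas yoked 1 fell among the saline libraries. Means were 449.6 ± 56.8 CPM in cocaine, 430.4 ± 72.7 CPM in yoked and 357 ± 40.5 CPM in saline libraries (SD, n = 3 each). The log2 fold change of cocaine over saline was 0.39 ± 0.16 (SE), a 1.31-fold higher value with a 95% interval of 1.04 to 1.65, with an edgeR unadjusted p of 0.0245 and a Benjamini-Hochberg adjusted p of 0.999. Among the alternatives tried it ran from 0.28 without cocaine 2 to 0.46 without cocaine 1, and its lowest adjusted p was 0.741, by edgeR without yoked 3. Yoked over saline stood at 0.32 ± 0.16 (edgeR unadjusted p = 0.0605) and cocaine over yoked at 0.07 ± 0.16. Without yoked 2 these were 0.21 and 0.18, and without yoked 1 they were 0.46 and -0.064. The ribosomal RNA gene Rn45s enters the CPM total. It took 11.4% to 20.5% of the gene counts in cocaine, 14.7% to 15.2% in yoked and 10.5% to 14.3% in saline libraries. With Rn45s left out, the edgeR log2 fold change of Rgs2 for cocaine over saline was 0.39. That value is scaled by TMM and not by the CPM total, and CPM means of the groups without Rn45s were not computed.

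**Figure D3:**
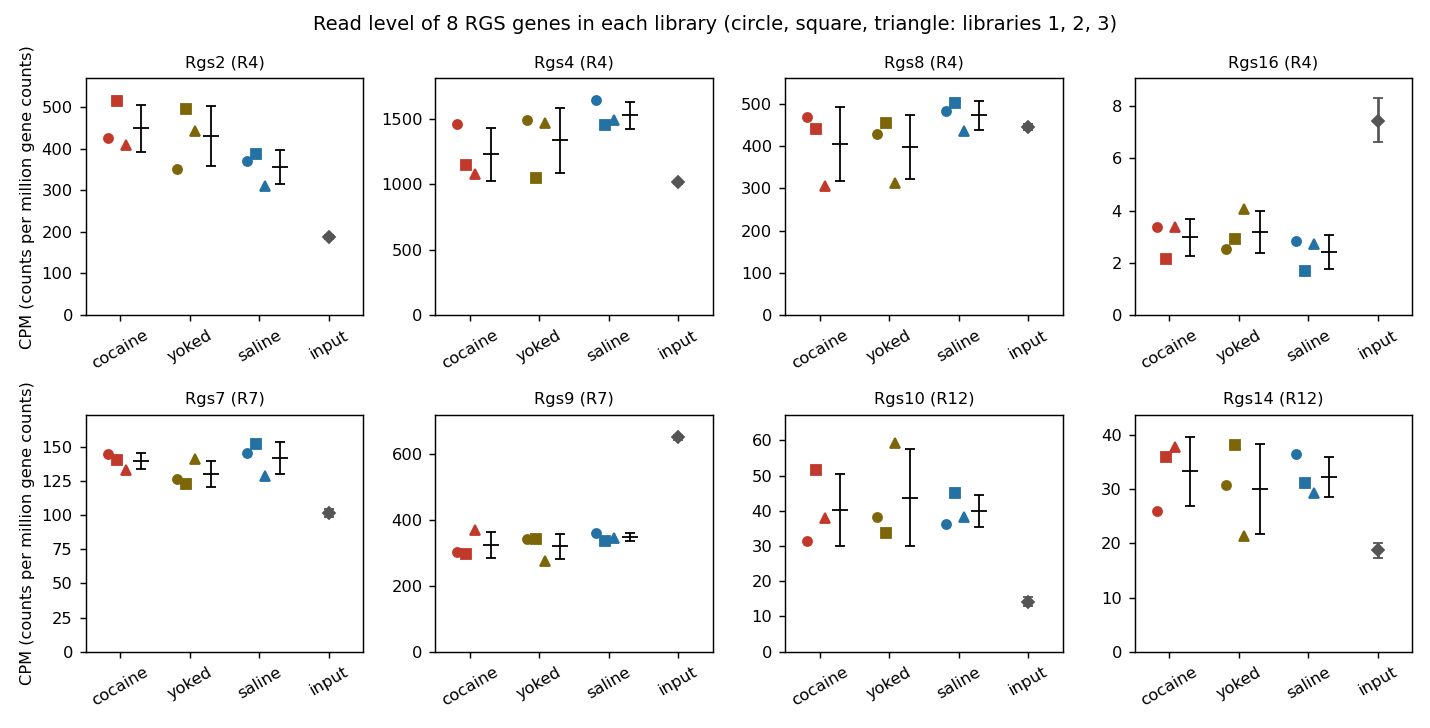
Each panel shows 1 RGS gene, with CPM on the vertical axis from 0 and the cocaine, yoked, saline and input libraries from left to right; symbols give the library number, black bars the mean and SD of 3 libraries, and the bar on the input its 95% Poisson interval. Rgs2 is the one gene whose 3 cocaine libraries all lie above the 3 saline libraries, and Rgs9 and Rgs16 have their highest value in the input.

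Rgs4 had a fold change below 0 between the same groups. Its level was 1459, 1147 and 1079 CPM in the cocaine libraries, 1488, 1049.8 and 1467 CPM in the yoked libraries and 1645, 1449 and 1489 CPM in the saline libraries, each in the order 1, 2 and 3. Cocaine 1 lay just above the lowest saline library, so that the groups overlapped. Means were 1228 ± 203 CPM in cocaine, 1335 ± 247 CPM in yoked and 1528 ± 103 CPM in saline libraries (SD, n = 3 each). Log2 fold changes were -0.26 ± 0.16 for cocaine over saline (edgeR unadjusted p = 0.119, 95% interval of the fold 0.658 to 1.05), -0.11 ± 0.16 for cocaine over yoked and -0.15 ± 0.16 for yoked over saline. Single libraries decided the last 2: cocaine over yoked was -0.0098 without yoked 3 and -0.26 without yoked 2, and yoked over saline was -0.0039 without yoked 2 and -0.25 without yoked 3. The 6 markers of cortical glutamatergic neurons, whose RNA was also in the pull-downs, summed to 70.4 to 103 CPM in cocaine, 21.7 to 120.4 in yoked and 24.3 to 80.0 in saline libraries and to 33.0 CPM in the input, with Emx1 at 0 in saline 2. Yoked 2 had both the lowest Rgs4 and the lowest cortical sum of the 9, while saline 1, with the highest Rgs4, had the second lowest sum. Their part in the Rgs4 values was not tested.

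Rgs8 was lowest in cocaine 3 and yoked 3. It was at 469, 442 and 305 CPM in cocaine, at 429, 456 and 312 CPM in yoked and at 483, 502 and 436 CPM in saline libraries, in the order 1, 2 and 3. The other 7 libraries lay between 429 and 502 CPM. Log2 fold changes were -0.17 ± 0.16 for cocaine over saline, 0.04 ± 0.16 for cocaine over yoked and -0.21 ± 0.16 for yoked over saline, and without cocaine 3 the first was -0.026 and the second 0.18. Without yoked 3 the second was -0.091 and the third -0.080. Rgs16, at 3.38, 2.15 and 3.39 CPM in cocaine, 2.54, 2.92 and 4.07 CPM in yoked and 2.85, 1.68 and 2.74 CPM in saline libraries, was the least covered member. Its lowest value, in saline 2, rested on 21 counts and had a 95% Poisson interval of 1.04 to 2.56 CPM for counting error alone. The log2 fold changes of Rgs16 had the widest errors, with 0.33 ± 0.33 for cocaine over saline, -0.09 ± 0.33 for cocaine over yoked and 0.42 ± 0.33 for yoked over saline, and the interval of cocaine over saline reached from 0.764-fold to 2.07-fold. Cocaine over saline was 0.14 without saline 2, 0.19 without cocaine 3 and 0.52 without cocaine 2. Yoked over saline was 0.16 without yoked 3 and 0.23 without saline 2.

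The R7 genes had the narrowest ranges. Rgs7 was at 145, 140.3 and 133 CPM in cocaine 1, 2 and 3, at 127, 123 and 141 CPM in yoked 1, 2 and 3, and at 145, 152 and 129 CPM in saline 1, 2 and 3. All 9 values lay within a factor of 1.23, and the fold of cocaine over saline was 1.02 with a 95% interval of 0.851 to 1.23. Rgs9, whose product shortens D2 and opioid receptor signalling, was at 303, 296 and 368 CPM in cocaine, at 342, 341 and 276 CPM in yoked and at 360.2, 336 and 346 CPM in saline libraries. The saline values fell inside the range of the cocaine values, and the fold of cocaine over saline was 0.967 with a 95% interval of 0.789 to 1.19. Cocaine over yoked was 1.08-fold for Rgs7 (95% interval 0.898 to 1.30) and 1.02-fold for Rgs9 (0.835 to 1.25), and yoked over saline was 0.948-fold for Rgs7 (0.789 to 1.14) and 0.944-fold for Rgs9 (0.771 to 1.16).

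For the R12 genes, as for the other members, libraries of the same group differed. Rgs10 was at 31.5, 51.5 and 38.0 CPM in cocaine, at 38.2, 33.8 and 59.4 CPM in yoked and at 36.3, 45.2 and 38.4 CPM in saline libraries. The groups overlapped, with log2 fold changes of 0.08 ± 0.24 for cocaine over saline, -0.11 ± 0.23 for cocaine over yoked and 0.19 ± 0.24 for yoked over saline. Without yoked 3 the last 2 were 0.21 and -0.13. Rgs14 was at 26.1, 36.0 and 37.9 CPM in cocaine, at 30.7, 38.1 and 21.5 CPM in yoked and at 36.5, 31.1 and 29.2 CPM in saline libraries. Both its highest and its lowest CPM were in the yoked group, but with TMM scaling the highest value was in cocaine 3. Log2 fold changes were 0.11 ± 0.21, 0.17 ± 0.21 and -0.06 ± 0.21 for cocaine over saline, cocaine over yoked and yoked over saline, the second of them -0.00039 without yoked 3.

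**Figure D4:**
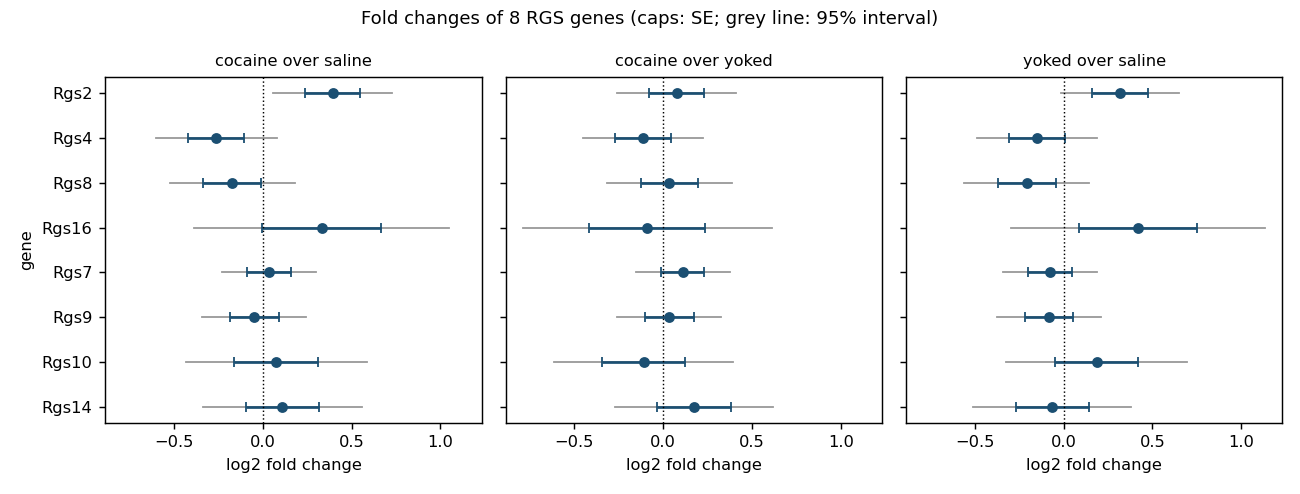
Points give the log2 fold change of 8 RGS genes in 3 comparisons, with caps for the SE and grey lines for the 95% interval of edgeR's quasi-likelihood fit. The grey line of Rgs2 for cocaine over saline is the only one of the 24 that does not reach 0, and its adjusted p was 0.999.

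Over the 9 pull-downs the members differed in how far they spread. The coefficient of variation was 7.11% for Rgs7, 9.41% for Rgs9, 15.6% for Rgs4, 16.0% for Rgs2, 16.5% for Rgs8, 18% for Rgs14, 21.8% for Rgs10 and 24.8% for Rgs16, where the median of 11895 genes was 16.3%. By CPM, yoked 3 held an extreme for 4 members, the highest Rgs10 and Rgs16 and the lowest Rgs9 and Rgs14. Yoked 2 held 3 extremes (the highest Rgs14 and the lowest Rgs4 and Rgs7), and saline 2 held 3 (the highest Rgs8 and Rgs7 and the lowest Rgs16). With TMM scaling, Rgs14 was highest in cocaine 3.

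**Figure D5:**
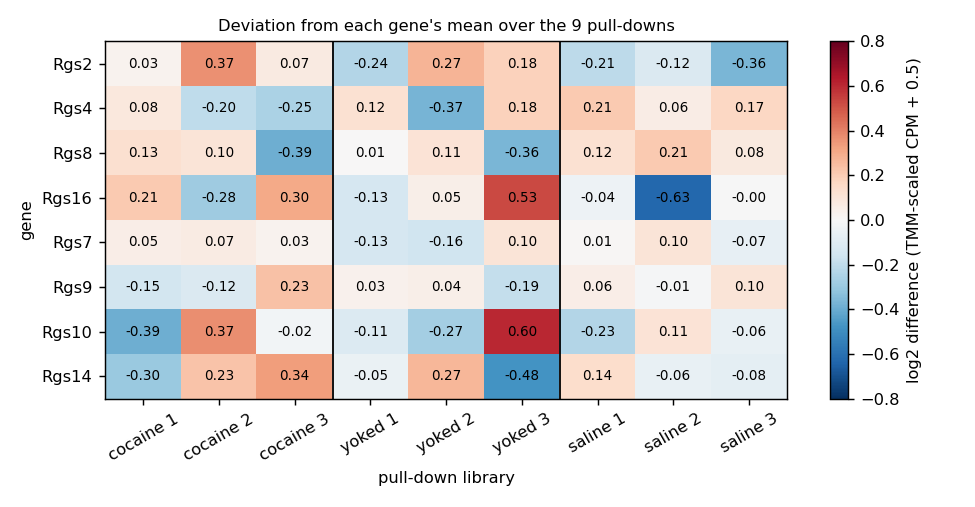
Rows are 8 RGS genes and columns the 9 pull-downs, and each cell gives the log2 difference of TMM-scaled CPM (with 0.5 added) from that gene's mean over the 9. Within the yoked group, Rgs10 runs from -0.27 in yoked 2 to 0.60 in yoked 3 and Rgs14 from 0.27 in yoked 2 to -0.48 in yoked 3.

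Relations between members across the 9 pull-downs did not pass adjustment. Of 28 pairs, 4 had an exact permutation p under 0.05 for Pearson's r and 0 after Benjamini-Hochberg adjustment over the 28 (smallest adjusted p = 0.317). The strongest was between the neighbours Rgs8 and Rgs16, with Pearson's r = -0.747 (exact permutation p = 0.0189, adjusted p = 0.317) and Spearman's rho = -0.517 (exact permutation p = 0.162, adjusted p = 0.755) over 9 libraries. Without cocaine 3 and yoked 3, the libraries farthest from the median of Rgs8, r was -0.458. Rgs4 and Rgs14 had r = -0.721 and rho = -0.650 (exact permutation p = 0.0337 and 0.0666, adjusted p = 0.317 and 0.605, and r = -0.492 without yoked 2 and cocaine 3). Rgs2 and Rgs4 had r = -0.693 and rho = -0.583 (exact permutation p = 0.0452 and 0.108, adjusted p = 0.317 and 0.605, and r = -0.617 without saline 3 and cocaine 2). Rgs9 and Rgs14 had r = 0.683 and rho = 0.617 (exact permutation p = 0.0426 and 0.0857, adjusted p = 0.317 and 0.605), and r = 0.256 without yoked 3 and cocaine 3, the libraries farthest from the median of Rgs9. The permutations exchanged all 9 libraries without regard to group or lane, so differences between groups were not removed from these values. Each lane and group holds 3 libraries, too few for a value within it.

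The genes whose log2 level over the 9 pull-downs was most like that of a member, among 11046 named genes, were found for each member by Pearson's r, given as a description since these are the highest of many values. They were Ints12 (r = 0.974) and Tln1 (0.948) for Rgs2, Mcu (0.932) and Kcnk2 (0.926) for Rgs4, Pdpk1 (0.967) and Garem (0.960) for Rgs8, and Mboat2 (0.986) and Orc3 (0.973) for Rgs16. For the R7 genes they were Ankrd46 (0.953) and Gusb (0.937) for Rgs7, and Rnf112 (0.969) and Lrrc4b (0.946) for Rgs9. For the R12 genes they were Snx7 (0.971) and Rnf11 (0.969) for Rgs10, and Cdc37 (0.946) and Smarcb1 (0.945) for Rgs14. Spearman's rho for the same pairs ran from 0.633 (Pdpk1 with Rgs8) to 0.983 (Mboat2 with Rgs16). With Rgs4 it was 0.8 for Mcu and 0.733 for Kcnk2. No member was among the genes most like another member.

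The rest of the RGS family was measured in the same libraries. Of 13 other RGS genes, 9 passed the filter on low counts, 0 were called in any comparison by edgeR and 0 reached an unadjusted p under 0.05. Their median log2 fold change was -0.03 for cocaine over saline, 0.03 for cocaine over yoked and -0.03 for yoked over saline. Rgs20, a regulator of G alpha z and i, averaged 209 ± 27.9 CPM over 9 pull-downs (SD) and 121 CPM in the input, a ratio of 1.71. Rgs17, of the same subfamily, averaged 184 ± 25.6 CPM in pull-downs and 301 CPM in the input, a ratio of 0.608. Rgs19 was at 2.0 times and Rgs12 at 1.20 times the input. Rgs5, a gene of pericytes, was at 0.135 times the input. Of the 8 that averaged 50 or more counts, 2 exceeded the input in each pull-down and 4 lay below it in each, and Rgs18 had 0 counts in every library.

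Among partners and anchors of the R7 proteins, Gnb5, which encodes the G beta subunit they need for stability, exceeded the input in each pull-down at 1.83 times (319 ± 31.3 CPM in pull-downs, SD, against 173 CPM in the input). The membrane anchor gene Rgs7bp was below it in all 9 at 0.775 times (1107 ± 152 CPM against 1416), and the orphan receptor gene Gpr158, whose product binds Rgs7, was at 0.967 times on both sides. Rgs9bp, the anchor known from the retina, had 0 to 5 counts per pull-down and 37 in the input. Of the 5 genes, 3 were tested and 0 were called or reached an unadjusted p under 0.05 by edgeR in any comparison, with log2 fold changes of cocaine over saline of 0.04 for Gnb5, -0.20 for Rgs7bp and -0.17 for Gpr158.

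Of 12 genes of G alpha subunits, 11 were tested and 0 were called by edgeR. Gnai3 alone reached an unadjusted p under 0.05, with log2 fold changes of -0.30 for cocaine over yoked and 0.30 for yoked over saline, which share the yoked libraries. Gnal, which couples D1 and adenosine receptors to adenylyl cyclase in the striatum, was at 1.10 times the input, Gnao1 at 0.942, Gnai1 at 1.61 and Gnaq at 0.804 times. Gnaz was at 1.72 times and Gnas at 0.332 times the input.

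Of 16 receptor genes that signal through these subunits, all were tested, 0 were called and 0 reached an unadjusted p under 0.05 by edgeR. The log2 fold change was below 0 for 14 of the 16 in cocaine over saline (median -0.17), where 49.4% of all genes tested were below 0. In that comparison 8 of the 11 G alpha genes tested and 5 of 7 markers of all medium spiny neurons (median -0.16) were also below 0. For markers of D1 neurons it was 5 of 7 (median -0.0066) and for those of D2 neurons 2 of 6. Among cortical glutamatergic markers it was 0 of 5 tested and among endothelial and mural markers 4 of 4 tested. It was 4 of 7 for astrocytes, 4 of 7 for microglia, 3 of 6 for oligodendrocytes and 3 of 6 for interneurons. The lists share genes. Gnal is a G alpha gene and a medium spiny marker. Drd1, Chrm4, Drd2 and Adora2a are receptor genes and also D1 or D2 markers. All these genes were read in the same libraries and lanes, so their signs are not independent. Of the 16 receptor genes, 11 were below 0 in cocaine over yoked (median -0.10, with 54.5% of all genes below 0). In yoked over saline 11 of the 16 were below 0 (median -0.14, with 45.0% of all genes below 0). Against the input, Drd1 was at 2.07 times, Gabbr1 at 1.19, the cannabinoid receptor gene Cnr1 at 0.587 and Grm5 at 0.876 times. The muscarinic receptor genes Chrm1 and Chrm4 were at 1.42 and 2.04 times the input, and Drd2 and Adora2a of D2 neurons at 0.0882 and 0.115 times. Of 5 other modulators of the G alpha cycle, 3 were tested and 0 were called or reached an unadjusted p under 0.05 by edgeR. Gpsm1 was at 1.88 times and Ric8b at 1.01 times the input.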

How the data were processed

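Each library had 1 file of raw counts by gene symbol, deposited by the authors. The submitters' processing notes name the aligner STAR (2.0.0e), the counter HTSeq and the build mm10. The version of HTSeq, its mode and strand setting and the annotation were not given in the sources used here, so reads of genes overlapping on opposite strands cannot be told apart. The 6 rows naming no gene were left out of totals and tests. The row for reads outside annotated features made up 12.3% to 16.1% of unique alignments per pull-down and 27.6% for the input. Pairs of replicates had a chi-square of their counts of 14.4 to 157 for each degree of freedom, and all libraries were kept as separate samples.

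Groups were compared with edgeR 4.0.16 in R 4.3.3 on all 9 pull-downs (quasi-likelihood F test, robust, TMM with factors of 0.954 to 1.05, filterByExpr, group as the only term), with Benjamini-Hochberg adjustment over 14680 genes. SEs were taken as the size of the log2 fold change over the square root of its F, and intervals use the fit's 13.7 degrees of freedom. Ratios to the single input are the mean of log2(CPM + 0.5) differences over the 9 pull-downs, without a test. The detection floor of 3 counts is 0.0663 to 0.239 CPM; Poisson intervals and floors cover counting error only. DESeq2 1.42.0 and limma 3.58.1 (voom) were alternatives, as were other scalings, no filter, a replicate block and leaving out libraries. Named genes are the 8 members, the 2 genes most like each by Pearson's r, and, from each list of related genes, those of highest mean CPM; other genes of those lists were named after their values were seen. The members and lists were chosen with earlier results of these data known.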

Additional observations from a re-analysis of the deposited data

How the results depend on the processing

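No RGS member was called under any of the alternatives run, with an adjusted p of 0.739 or more for every member. Over all genes the count called was 0, but it was 1 between cocaine and saline by DESeq2, with the replicate block, with only those groups in the fit, without yoked 3 and without the libraries numbered 3 (chosen after the data were seen), 1 in both other comparisons with the block and 1 between yoked and saline without yoked 3. Leaving out 1 library at a time gave 0 to 1, 0 to 0 and 0 to 1 genes called in the 3 comparisons, and 0 members in each. The labels do not say that a library's number marks a shared animal, day or batch, so the numbers were not used as a pairing. The deviations of same-numbered libraries from their group means did correlate in part. In the 6 pairs of numbers 2 and 3, r was 0.123 to 0.281, and in the 3 pairs of number 1 it was -0.067 to 0.076. Between libraries 2 and 3 of different groups r was -0.270 to -0.152. Between a library 1 and a library 2 or 3 of another group it was -0.100 to 0.172, highest for cocaine 1 with yoked 2. Of the 9 libraries, 7 correlated best with one of their own number. Deviations within a group sum to 0, so these values are not separate from each other, and the pattern is a hint from the data and not from the design. Within numbers 1, 2 and 3, the log2 ratio of CPM of cocaine over saline was 0.20, 0.41 and 0.40 for Rgs2, -0.17, -0.34 and -0.46 for Rgs4, -0.041, -0.19 and -0.52 for Rgs8 and 0.24, 0.36 and 0.31 for Rgs16, while the other 4 members had both signs. In cocaine over yoked every member had both signs, and in yoked over saline every member but Rgs4 and Rgs8 did. The share of all genes that kept their sign in all 3 numbers was not computed, so the members cannot be set against it. With the replicate block 0 members were called.

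The sign of 10 of the 24 member fold changes held in every alternative. No sign changed with the tool, the scalings tried, filter, block or groups in the fit. A fit on unscaled CPM was not among these. The mean CPM of Rgs7 was 139.7 in cocaine and 142.1 in saline, against its log2 fold change of 0.03. Leaving out 1 library moved the cocaine over saline log2 fold change between -0.0063 and 0.078 for Rgs7, -0.19 and 0.020 for Rgs9, -0.14 and 0.25 for Rgs10 and -0.021 and 0.28 for Rgs14. For cocaine over yoked the ranges were -0.064 to 0.18 for Rgs2, -0.091 to 0.18 for Rgs8, -0.24 to 0.16 for Rgs16, -0.10 to 0.10 for Rgs9, -0.33 to 0.21 for Rgs10 and -0.00039 to 0.37 for Rgs14, and for yoked over saline -0.13 to 0.34 for Rgs10 and -0.27 to 0.11 for Rgs14. Without the libraries numbered 3 the sign also changed for Rgs7 (-0.0010) and Rgs14 (-0.064) in cocaine over saline, for Rgs4 (0.050), Rgs16 (0.028), Rgs9 (-0.17), Rgs10 (0.23) and Rgs14 (-0.13) in cocaine over yoked, and for Rgs9 (0.014), Rgs10 (-0.13) and Rgs14 (0.066) in yoked over saline. The causes were not tested.

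Against the input, 5 members stayed above and 2 below in all pull-downs under each alternative. TMM scaling raised the ratios, with the log2 mean of Rgs7 at 0.63 and of Rgs9 at -0.78. The share of all genes above the input in all pull-downs was 33.1%, but 18% when every gene with a count entered, 43.8% with TMM scaling and 33.2% to 37.8% with 1 library left out. The share below it was 30.2%, with 38.5%, 22.6% and 30.4% to 32.8% under the same alternatives.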
